A study of Sus scrofa with 12 samples.

Results

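The subunit genes of the AMP-activated protein kinase (AMPK) were followed in muscle RNA of 12 pigs, 6 labelled high drip and 6 labelled low drip. Drip is the fluid that meat loses after slaughter, so a high value goes with a low water holding capacity. The set was defined by name as PRKAG3, PRKAG1, PRKAG2, PRKAB1, PRKAB2, PRKAA1 and PRKAA2, and 5 of the 7 were found among the 20741 features of the whole-genome count tables. The 5 were PRKAG3 (ENSSSCG00000016200), PRKAG2 (ENSSSCG00000016432), PRKAG1 (ENSSSCG00000000185), PRKAB2 (ENSSSCG00000006703) and PRKAB1 (ENSSSCG00000009840), and all 5 passed the filter on low counts that left 10627 features for testing. The IDs of the catalytic genes PRKAA1 and PRKAA2 had no match in these tables, so the alpha subunits were not analysed here. PRKAG3 was also counted in a smaller table per animal, of 770 features from the genome regions that the study linked to water holding.

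AMPK is a kinase of 3 kinds of subunit that senses the energy state of the cell. An alpha subunit carries the kinase, a beta subunit holds the complex together and binds glycogen, and a gamma subunit binds AMP, ADP and ATP and so tunes the activity. The gamma 3 subunit encoded by PRKAG3 is found mainly in fast, glycolytic skeletal muscle. In pigs PRKAG3 is known as the RN gene, at which a dominant allele raises muscle glycogen and gives meat of low final pH and poor water holding. The genotype of these animals at PRKAG3 is not given in the labels.

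The high drip group held 3 females aged 173, 179 and 181 days and 3 males aged 167, 172 and 186 days. The low drip group held 3 females aged 173, 181 and 189 days and 3 males aged 172, 172 and 179 days. The labels give no breed, no treatment and no muscle, and animals are named here by drip level and a number in which 1 to 3 are females and 4 to 6 are males. Libraries held 8009627 to 12622043 counts in the whole-genome tables and 137166 to 199407 in the region tables. For 3 females (low drip 1, high drip 2 and low drip 2) the whole-genome table was recorded under another animal of the 3, although its file name carries the right animal's number, and tables were taken by that number. Each table then shared 737 to 745 identical counts of 770 with its animal's region table, against at most 167 for any other animal's table. Transcripts of liver genes were present in 6 libraries, high drip 1, 2, 3 and 4 and low drip 5 and 6, in which albumin stood above 10 CPM (counts scaled to a fixed library total). Of 26 liver genes in the table, 12 had all 6 of these libraries above all 6 of the rest. Albumin is among the 26 and separates by the definition of the split. The share of all features that separate in this way was not computed. All 3 high drip females and none of the low drip females held liver transcripts, so in females drip and the liver transcripts cannot be told apart. All 5 skeletal muscle markers in the table, of 10 listed, were detected in every group, with a summed level of 75933 to 101840 CPM in high drip and 79743 to 102020 CPM in low drip libraries.

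PRKAG3, the muscle gamma subunit, had 121.5, 124.7 and 127.3 CPM in the high drip females, against 148.3, 167.5 and 184.3 CPM in the low drip females. In males it had 94.4, 157.3 and 185.4 CPM at high drip, against 69.4, 75.0 and 119.1 CPM at low drip. All high drip females thus lay below all low drip females, whereas the male groups overlapped and their order was the other way round. For single genes CPM here is the count scaled to the library's tested total with TMM factors. Levels of different genes are not compared because no transcript lengths were used. Sums of markers, and albumin where it sets the split, were instead scaled to the whole library total without TMM factors. PRKAG3 rested on 737 to 2028 counts per library, and its count in the region table differed from that in the whole-genome table by at most 1. In bulk muscle RNA, fewer cells of a type and less RNA per cell cannot be told apart.

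PRKAG2, a gamma subunit known chiefly from heart, had 16.6, 17.2 and 22.4 CPM in high drip females, against 17.4, 20.6 and 35.4 CPM in low drip females. In males it had 18.4, 30.2 and 80.0 CPM at high drip, against 18.8, 55.2 and 59.9 CPM at low drip. The high and low drip groups overlapped in both sexes. The highest 3 of the 12 values, 55.2, 59.9 and 80.0 CPM, belonged to low drip 5, low drip 6 and high drip 4, which are the only animals aged 172 days and are all males. The same 3 animals had the lowest PRKAG3 of the 12. They were also the only males whose libraries held liver transcripts. PRKAG2 stood at 55.2 to 80.0 CPM in them and at 16.6 to 35.4 CPM in the other 9 animals, and PRKAG3 at 69.4 to 94.4 CPM in them and at 119.1 to 185.4 CPM in the rest. These 3 animals were singled out after their values were seen. Of all tested features, 0.95% were higher in all 3 than in any of the other 9 animals and 1.07% were lower in all 3. The remaining gamma gene, PRKAG1, which is expressed in most tissues, had 43.9 to 49.4 CPM with a median of 48.0 CPM at high drip, against 39.4 to 54.4 CPM with a median of 47.6 CPM at low drip, so its high drip values lay within the low drip range.

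Of the beta subunits, PRKAB2 is the form that predominates in skeletal muscle and PRKAB1 the widely expressed form. PRKAB2 had 100.9 to 130.5 CPM with a median of 113.9 CPM at high drip, against 104.1 to 143.9 CPM with a median of 125.0 CPM at low drip. PRKAB1 had 13.2 to 17.1 CPM with a median of 14.5 CPM at high drip, against 12.2 to 19.7 CPM with a median of 13.7 CPM at low drip. Both genes overlapped between the drip groups over most of their range.

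**Figure D1:**
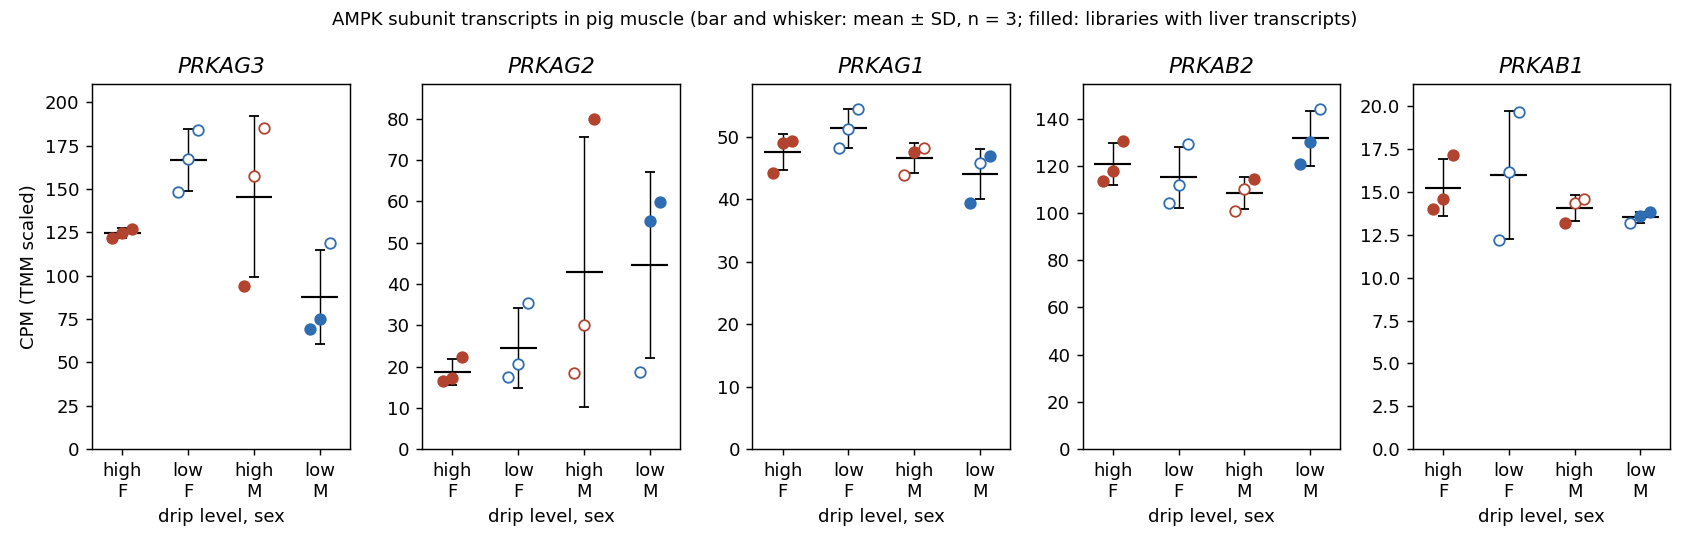
Level of each AMPK subunit gene in CPM (TMM scaled, linear axis from 0) in 4 groups of 3 animals by drip level and sex (F female, M male). Points are animals, filled where the library held liver transcripts, and bars with whiskers are mean ± SD. PRKAG3 lies lower in all 3 high drip females than in the low drip females, and PRKAG2 reaches 55.2 CPM or more in 3 males.

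The 5 genes differed widely in how much they varied between animals. The SD of log2 CPM over the 12 animals was 0.80 for PRKAG2, larger than that of 96.4% of all tested features. It was 0.47 for PRKAG3, larger than that of 80.0% of features. PRKAB1 with an SD of 0.19, PRKAB2 with 0.15 and PRKAG1 with 0.12 lay below the median of all features, which was 0.30. Only 2.33% of features had a lower SD than PRKAG1. The 2 most variable members were therefore both gamma subunits, and the least variable member was the third gamma subunit.

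Within the gamma subunits, PRKAG3 took 42.5% to 71.5% of the counts in high drip libraries with a median of 65.4%, against 41.3% to 72.9% with a median of 63.6% in low drip libraries. PRKAG2 took 8.21% to 36.0% of the gamma counts at high drip with a median of 10.25%, against 6.86% to 33.7% with a median of 12.5% at low drip. PRKAG1 took 16.9% to 26.2% at high drip, against 20.3% to 25.8% at low drip. These are shares of counts and not of transcripts, because the counts were not divided by length. The wide ranges came from the males aged 172 days. In these 3 libraries PRKAG3 took 41.3%, 42.3% and 42.5% of the gamma counts and PRKAG2 took 32.9%, 33.7% and 36.0%. In the other 9 libraries PRKAG3 took 62.3% to 72.9% and PRKAG2 took 6.86% to 14.9%. The share of PRKAG1 was 21.5% to 25.8% in the 3 libraries and 16.9% to 26.2% in the other 9. Within the beta subunits PRKAB2 took 87.4% to 89.7% of the counts at high drip, against 84.1% to 91.6% at low drip.

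**Figure D2:**
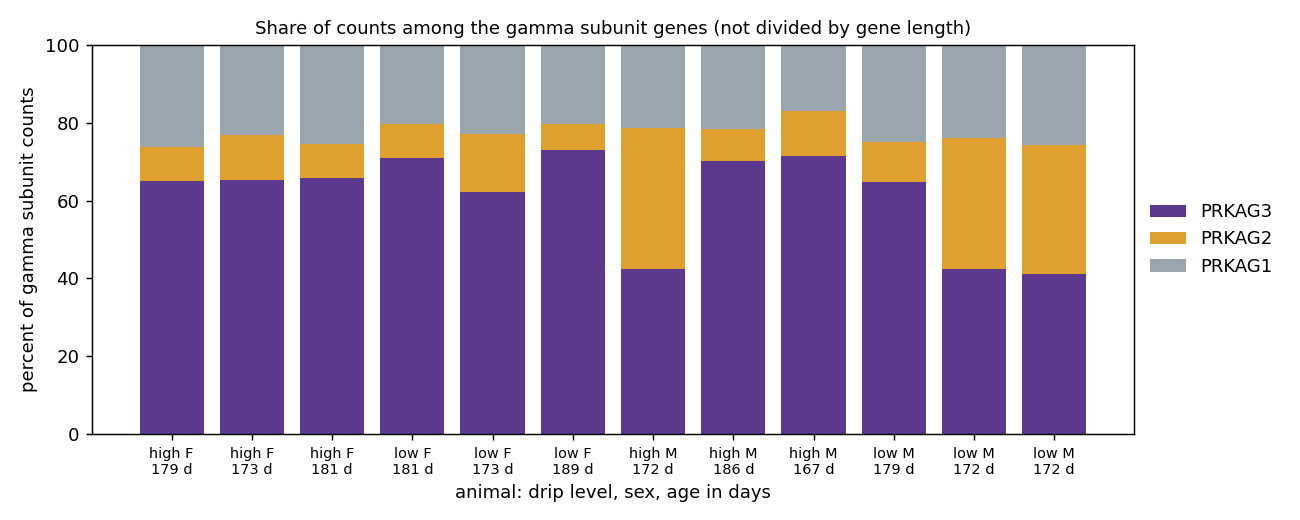
Share of the counts of the 3 gamma subunit genes taken by PRKAG3, PRKAG2 and PRKAG1 in each of the 12 libraries, in percent, labelled by drip level, sex and age in days. The 3 males aged 172 days have PRKAG2 shares of 32.9% to 36.0%, against 6.86% to 14.9% in the other 9 animals.

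Whether the subunits differ with drip was tested with edgeR's quasi-likelihood test on all 10627 features, with sex as a term. No feature was called at an adjusted p under 0.05 (0% called), 380 features had an unadjusted p under 0.05 (3.58%), and DESeq2 also called 0, with 363 under 0.05 unadjusted. None of the 5 subunits passed the threshold. PRKAG3 averaged 135 ± 31.7 CPM at high drip and 127 ± 47.9 CPM at low drip (SD, n = 6 each), a log2 fold of 0.15 ± 0.23 (SE, edgeR adjusted p = 0.999). Without high drip 6 that fold was 0.0027, without low drip 5, low drip 6 or high drip 5 it was 0.016, 0.033 or 0.074, and without low drip 3, where it was highest, it was 0.25. PRKAG2 averaged 30.8 ± 24.6 CPM at high drip and 34.5 ± 19.0 CPM at low drip, a log2 fold of -0.22 ± 0.34 with the same adjusted p, and the fold ranged from -0.61 without high drip 4 to -0.04 without low drip 2. The log2 folds of PRKAB2, PRKAG1 and PRKAB1 were -0.11 ± 0.10, -0.01 ± 0.09 and -0.01 ± 0.12, also with an adjusted p of 0.999 in edgeR. In each of the 5 genes the difference was within about 1 standard error of 0 or little beyond it, and a p that misses the threshold does not show that the groups are alike. In the region tables, which have no conflict over the animal, PRKAG3 had a log2 fold of 0.14 ± 0.21 for drip (edgeR adjusted p = 0.988), where 0 of 485 tested features were called (0%) and 14 had an unadjusted p under 0.05 (2.89%), with 0 called and 9 under 0.05 by DESeq2. With the presence of liver transcripts as a further term, the log2 fold of PRKAG3 for drip was 0.42 ± 0.09 in the whole-genome tables and did not pass (edgeR adjusted p = 0.700). That fit takes the differences for drip and for liver transcripts to be the same in males and females. In females the term and drip coincide, so only males tell them apart.

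Sex was tested in the same fit. No feature was called (0%), 681 had an unadjusted p under 0.05 (6.41%), and DESeq2 called 2, with 690 under 0.05 unadjusted. PRKAG2 averaged 43.7 ± 25.1 CPM in males and 21.6 ± 7.13 CPM in females (SD, n = 6 each). Its log2 fold of 1.03 ± 0.34 was the largest of the 5 for sex and did not pass (edgeR unadjusted p = 0.00951, adjusted p = 0.688). The range was 18.4 to 80.0 CPM in males and 16.6 to 35.4 CPM in females, so 3 of the 6 males lay inside the female range. With age as a further term the log2 fold of PRKAG2 for sex was 0.63 ± 0.31. PRKAG3 averaged 117 ± 46.6 CPM in males and 146 ± 25.8 CPM in females, a log2 fold of -0.35 ± 0.23 (edgeR adjusted p = 0.801). The log2 folds for sex were -0.13 ± 0.09 for PRKAG1, -0.18 ± 0.12 for PRKAB1 and 0.02 ± 0.10 for PRKAB2, and the adjusted p was at least 0.808 for each of them in edgeR.

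The drip difference of PRKAG3 had opposite directions in males and females, and the difference between them was tested directly. It averaged 146 ± 46.6 CPM in high drip males and 87.8 ± 27.2 CPM in low drip males, and 125 ± 2.86 CPM in high drip females and 167 ± 18.0 CPM in low drip females (SD, n = 3 each). The interaction, the log2 difference for drip in males minus the one in females, was 1.15 ± 0.34 and did not pass (edgeR unadjusted p = 0.00439, adjusted p = 1.00). Of all features, 0% were called for the interaction and 371 had an unadjusted p under 0.05 (3.49%), while DESeq2 called 7, PRKAG3 not among them (adjusted p = 0.344), with 329 under 0.05 unadjusted. Features lower in every high drip female than in every low drip female, as PRKAG3 was, made up 3.75% of those tested, and 3.15% were higher in every high drip female. In the region tables the interaction of PRKAG3 was 1.04 ± 0.31 (edgeR adjusted p = 0.383), where 0% of features were called, 27 had an unadjusted p under 0.05 (5.57%) and DESeq2 called 2, PRKAG3 not among them (adjusted p = 0.192). Without high drip 4 the region value was 1.26 ± 0.25 and passed (edgeR adjusted p = 0.0362). The interactions of the other subunits were -0.35 ± 0.18 for PRKAB2, 0.33 ± 0.70 for PRKAG2, 0.19 ± 0.18 for PRKAG1 and 0.13 ± 0.25 for PRKAB1, and none passed.

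Libraries with liver transcripts were unevenly spread over the same 4 groups, with 3 of 3 high drip females, 0 of 3 low drip females, 1 of 3 high drip males and 2 of 3 low drip males. In males they were exactly the 3 animals aged 172 days, so among males these 2 splits cannot be told apart. In females the split coincides with drip. PRKAG3 had 69.4 to 127.3 CPM in the 6 libraries with liver transcripts and 119.1 to 185.4 CPM in the 6 without. In a fit with sex and drip as the other terms, PRKAG3 fell by 0.82 ± 0.09 on the log2 scale in the libraries with liver transcripts (edgeR adjusted p = 0.00479), 1 of 13 features called (0.122%). In the region tables it fell by 0.73 ± 0.09 (edgeR adjusted p = 0.00126), 1 of 6 called (1.24%). Both fits take the drip difference to be the same in males and females, although that of PRKAG3 had opposite directions. Without that assumption only males inform the liver term, because in females it coincides with drip. With that term in the interaction fit, the interaction of PRKAG3 was 0.09 ± 0.26 in both tables. In that fit the liver term rests on males alone, because in females it coincides with drip. The interaction then takes the male liver difference to hold in females, which could not be tested. The same fit gave PRKAG2 an interaction of 2.48 ± 0.50, which did not pass (edgeR unadjusted p = 0.000292, adjusted p = 0.194), beside 0.33 ± 0.70 without that term. In males without liver transcripts PRKAG3 had 157.3 and 185.4 CPM at high drip, against 119.1 CPM at low drip. In males with liver transcripts it had 94.4 CPM at high drip, against 69.4 and 75.0 CPM at low drip. High drip males thus lay above low drip males on both sides of the split, with 1 or 2 animals per group, and females offer no such comparison. The levels of the liver genes themselves were 195 to 825 CPM in sum with liver transcripts and 94.0 to 246 CPM without. Their part in the level of PRKAG3 was not tested. PRKAG2 had 16.6 to 80.0 CPM in the libraries with liver transcripts and 17.4 to 35.4 CPM in those without, a log2 fold of 0.76 ± 0.33 (edgeR adjusted p = 0.764).

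**Figure D3:**
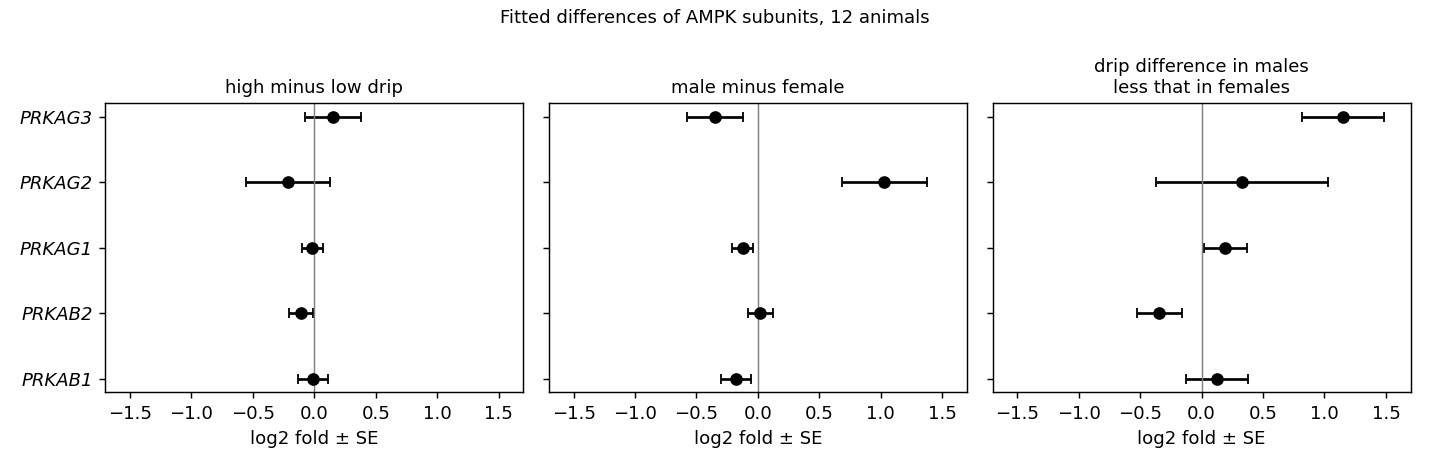
Fitted log2 differences of the 5 AMPK subunit genes over 12 animals, with standard errors, for high minus low drip, for male minus female, and for the drip difference in males minus the one in females. The largest are PRKAG3 in the interaction, 1.15 ± 0.34, and PRKAG2 by sex, 1.03 ± 0.34, and none passes an adjusted p of 0.05.

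The balance between subunits was also compared as a ratio of counts within each library, which needs no scaling between libraries. The log2 ratio of PRKAG3 to PRKAG1 averaged 1.49 ± 0.37 in high drip and 1.33 ± 0.49 in low drip animals (SD, n = 6 each, two-sided exact permutation p = 0.519). That of PRKAG2 to PRKAG1 averaged -0.87 ± 0.88 in high drip and -0.64 ± 0.88 in low drip animals (exact permutation p = 0.675). That of PRKAB2 to PRKAB1 averaged 2.96 ± 0.11 in high drip and 3.07 ± 0.40 in low drip animals (exact permutation p = 0.550). By sex, the log2 ratio of PRKAG2 to PRKAG1 averaged -0.27 ± 0.93 in males and -1.24 ± 0.38 in females. The difference of 0.97 had an exact permutation p of 0.0498, which became 0.299 after adjustment over the 6 ratio tests. The other 2 ratios by sex had an exact permutation p of 0.281 for PRKAG3 to PRKAG1 and 0.286 for PRKAB2 to PRKAB1. No subunit ratio therefore passed by drip or sex after adjustment, which does not show that the ratios are alike.

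Age spanned 167 to 189 days and was looked at after the levels of PRKAG2 had been seen. PRKAG2 had 16.6 to 20.6 CPM with a median of 17.9 CPM in the 6 animals of 179 to 189 days, against 22.4 to 80.0 CPM with a median of 45.3 CPM in the 6 animals of 167 to 173 days. These age groups did not overlap, and 0.358% of tested features were likewise lower in all 6 older animals, with 0.461% higher in all of them. Pearson's r of log2 CPM with age over the 12 animals was -0.691 (permutation p = 0.0136) and Spearman's rho was -0.786 (permutation p = 0.00358). Adjusted over all 10627 features these became 0.294 and 0.286. Without the 2 animals of most extreme age r was -0.673. In the edgeR fit with sex and drip, PRKAG2 differed by -0.76 ± 0.26 on the log2 scale per 10 days of age and did not pass (unadjusted p = 0.0113, adjusted p = 0.440). In that fit 0% of features were called for age and 1036 had an unadjusted p under 0.05 (9.75%), while DESeq2 called 21, PRKAG2 not among them (adjusted p = 0.164), with 954 under 0.05 unadjusted.

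Without the 3 males aged 172 days, the coefficients of PRKAG2 with age stayed negative. In the other 9 animals r was -0.764 (exact permutation p = 0.0167) and rho -0.658 (exact permutation p = 0.0606). These p-values were not adjusted over all features, and age was chosen after the levels were seen. They therefore do not settle how far the relation of PRKAG2 with age rested on the 3 males. In the 6 males r was -0.646 and rho -0.577 (exact permutation p = 0.167 and 0.283), and in the 6 females -0.683 and -0.530 (exact permutation p = 0.156 and 0.311), so it did not pass within either sex. In the 6 libraries with liver transcripts r was -0.832 and rho -0.880 (exact permutation p = 0.025 and 0.05). In the 6 libraries without them r was -0.861 and rho -0.886 (exact permutation p = 0.0292 and 0.0333). In males r rested on the oldest animals, and without the 2 males farthest from the median age it was 0.921 over 4 males aged 167 and 172 days. PRKAG3 had r = 0.431 and rho = 0.425 with age (permutation p = 0.161 and 0.169), and 0.156 for r without the 2 extreme ages. PRKAG1 had r = 0.469 and rho = 0.644 (permutation p = 0.124 and 0.0276, 0.531 and 0.406 over all features). For PRKAB1 and PRKAB2 r was 0.03 and 0.05. Whether animals of like age also shared a slaughter day or a litter is not given in the labels.

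**Figure D4:**
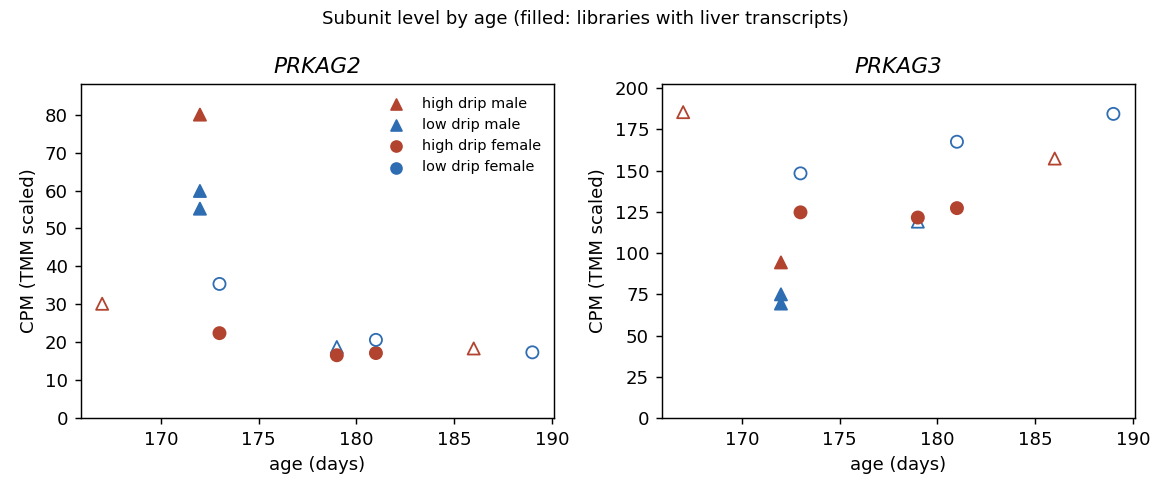
Level of PRKAG2 (left) and PRKAG3 (right) in CPM (TMM scaled, linear axes from 0) against age in days for the 12 animals. Triangles are males and circles females, colours give the drip level, and filled symbols are libraries with liver transcripts. PRKAG2 stays at 16.6 to 20.6 CPM in the 6 animals of 179 days or older and lies at 22.4 to 80.0 CPM in the 6 younger animals.

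Summed markers of vessel wall and connective tissue cells had higher medians in the younger animals, where PRKAG2 was also higher. These sums were scaled without TMM factors, unlike the levels of PRKAG2. The 4 smooth muscle and pericyte markers in the table, of 6 listed, summed to 254 to 295 CPM in the males aged 172 days and to 154 to 291 CPM in the other 9 animals. By age their sum was 154 to 220 CPM with a median of 182 CPM in the animals of 179 to 189 days and 191 to 295 CPM with a median of 260 CPM in those of 167 to 173 days. The 5 fibroblast markers, of 6 listed, had a median sum of 3174 CPM in the older animals (2797 to 4302 CPM) and of 4322 CPM in the younger ones (3695 to 5271 CPM). The 5 endothelial markers, of 8 listed, had a median sum of 195 CPM in the older animals (185 to 272 CPM) and of 258 CPM in the younger ones (230 to 283 CPM). None of these markers was at 0 throughout a group. With age, 1 of the 4 smooth muscle and pericyte, 1 of the 5 endothelial and 0 of the 5 fibroblast markers had a positive log2 change. The 3 macrophage markers, of 6 listed, also had a lower median sum in the older animals, 16.6 CPM against 23.6 CPM in the younger. The 2 satellite cell markers, of 4 listed, went the other way, with 17.2 CPM in the older and 9.66 CPM in the younger animals. The share of reads assigned to no feature was 24.2% to 27.05% in the 6 older animals and 27.13% to 29.3% in the 6 younger ones, so these ranges did not overlap either. The part of the other cells and of the reads outside features in the level of PRKAG2 was not tested.

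Co-variation of the subunits was measured over the 12 animals in 10 pairs of genes, and no pair of levels passed after adjustment over the 10. By Pearson's r the strongest was PRKAG3 with PRKAG2, with r = -0.681 (permutation p = 0.0156, adjusted p = 0.156) and rho = -0.427 (permutation p = 0.171, adjusted p = 0.425). When each animal's deviation from the mean of its sex and drip group was used instead, this pair passed, with r = -0.885 (permutation adjusted p = 0.0018) and rho = -0.916 (permutation adjusted p = 0.0007), and r was -0.740 without the 2 farthest animals. These permutations did not take into account that the deviations of a group sum to 0. In both male groups the animals aged 172 days lay below their group's mean of PRKAG3 and above that of PRKAG2. The deviations were not correlated without these 3 males. For the levels, without the 2 animals farthest from the median of PRKAG3, r was -0.420. Without the 3 males aged 172 days r was 0.318 and rho 0.300 (exact permutation p = 0.408 and 0.437), but these 3 hold the highest PRKAG2 and the lowest PRKAG3, so taking them out had to weaken a negative r. In the 6 libraries with liver transcripts, which include all 3, r was -0.833 (exact permutation p = 0.0972), and in the 6 without it was 0.103 (exact permutation p = 0.868). PRKAG3 with PRKAG1 followed with r = 0.501 and rho = 0.385 (permutation p = 0.0975 and 0.219), and r was 0.12 without the 3 males. By Spearman's rho the strongest was PRKAG3 with PRKAB2, with rho = -0.594 (permutation p = 0.0457, adjusted p = 0.418) and r = -0.39. PRKAB1 with PRKAB2 had rho = -0.524 and r = -0.44, but r was 0.53 in the 6 libraries that held liver transcripts. PRKAG1 with PRKAG2 had rho = -0.469 and r = -0.32. The remaining pairs had r between -0.27 and 0.28.

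**Figure D5:**
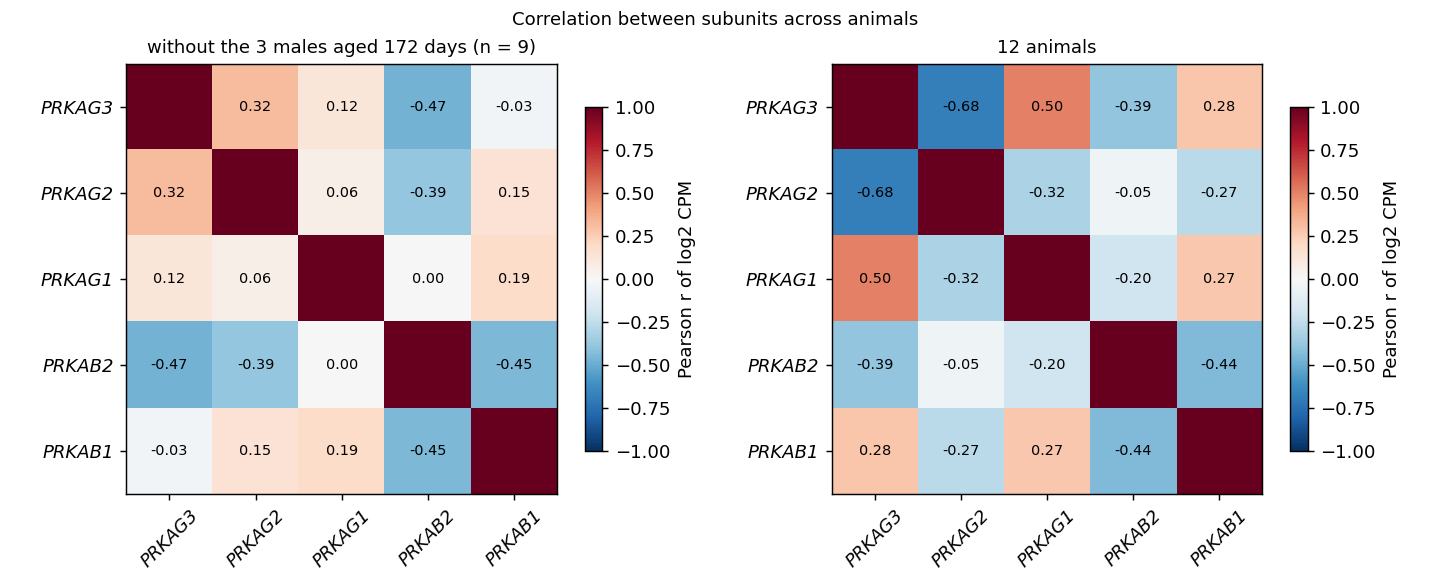
Pearson r of log2 CPM between AMPK subunit genes, without the 3 males aged 172 days (left, 9 animals) and over the 12 animals (right). The coefficient of PRKAG3 with PRKAG2 is 0.32 in the left panel and -0.68 in the right panel.

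The features most like PRKAG3 across the 12 animals were sought among 5629 other features with a mean of at least 10 CPM. Of the 5 with the highest r, 3 were features of the region tables, which supplied 172 of the 5629. The highest was HSMMG187, an identifier that the files pair with no gene name, with r = 0.980. It had 83.4 to 207.1 CPM in the 6 high drip animals, against 59.9 to 164.4 CPM in the 6 low drip animals, and like PRKAG3 its lowest 3 values were those of the males aged 172 days. TMED4, of the p24 family of cargo proteins between endoplasmic reticulum and Golgi, had r = 0.948, and HSMMG175 had r = 0.938. UNC45A, a myosin chaperone, and RABGGTA, a subunit of Rab geranylgeranyl transferase, had r = 0.907 and 0.875. Without the 2 animals of most extreme PRKAG3 these 5 coefficients were 0.955, 0.855, 0.879, 0.724 and 0.652. Within the libraries without liver transcripts r with HSMMG187 was 0.938, so the likeness was also present there. The lowest were LRRC2 (r = -0.854), LRRC39 (r = -0.803), which encodes a protein of the sarcomere's M-band, the kinase gene BRAF (r = -0.803), PPFIBP1 (r = -0.794), which encodes a liprin, and ENSSSCG00000029428 (r = -0.791). Without the same 2 animals these 5 were weaker, at -0.669, -0.529, -0.440, -0.560 and -0.515. Within the libraries without liver transcripts they were -0.701, -0.089, -0.145, -0.723 and -0.540. These coefficients are descriptions of the same 12 libraries, and the median over all features compared was 0.0023.

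PRKAG2 was most like ANXA1 (r = 0.935), which encodes an annexin, and FN1 (r = 0.933), which encodes the matrix protein fibronectin. ANXA1 and FN1 ranged from 45.3 to 87.0 CPM and from 167 to 329 CPM over the animals. Of 5629 features, 45 had an r of 0.8 or more either way with PRKAG2, 21 with PRKAG3, 17 with PRKAB1, 6 with PRKAG1 and 2 with PRKAB2. PRKAG1 was most like NCAM1, a cell adhesion gene, and TADA3, a transcriptional adaptor (r = 0.858 for both). PRKAB1 was most like the kinase gene ULK3 (r = 0.867) and PGM5 (r = 0.865), which encodes a protein of cell adhesion sites. PRKAB2 was most like DIS3L, an exosome ribonuclease (r = 0.788), and ARPC1A, an actin-nucleating subunit (r = 0.787). Without the 2 animals farthest from the subunit's median, the 2 coefficients were 0.85 and 0.87 for PRKAG2 and 0.62 and 0.81 for PRKAG1. They were 0.49 and 0.54 for PRKAB1 and 0.71 and 0.64 for PRKAB2.

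Other genes of the pathway were described by counts, beside 5352 of 10627 tested features positive for drip and a median log2 fold of 0.0017. None of them was called for drip, sex, age or the interaction in the edgeR fits. Of 6 tested upstream kinases and scaffolds, 2 were positive and 4 negative for drip, with a median log2 fold of -0.03. STK11, the main kinase that switches AMPK on, averaged 73.8 ± 5.14 CPM at high drip and 67.4 ± 10.52 CPM at low drip (SD, n = 6 each). MAP3K7, which encodes TAK1, averaged 20.9 ± 4.51 CPM at high drip and 25.4 ± 5.57 CPM at low drip. Of 10 tested phosphatases and regulators, 5 were positive and 5 negative, with a median of 0.01. SESN2, a stress-induced sestrin, ranged from 3.32 to 13.3 CPM at high drip and from 4.08 to 71.1 CPM at low drip, and the phosphatase gene PPM1B averaged 214 ± 41.4 CPM at high drip and 255 ± 56.0 CPM at low drip.

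Among targets of the kinase in lipid metabolism, 1 of 4 tested was positive for drip and 3 negative, with a median of -0.09. ACACA, an acetyl-CoA carboxylase, averaged 13.2 ± 3.25 CPM at high drip and 16.9 ± 4.86 CPM at low drip, and LIPE, a lipase, 19.4 ± 7.24 CPM at high drip and 21.8 ± 6.99 CPM at low drip. Among targets in glucose handling, 2 of 5 were positive and 3 negative, with a median of -0.14. SLC2A4, the insulin-responsive glucose carrier, averaged 7.31 ± 2.44 CPM at high drip and 8.14 ± 1.41 CPM at low drip, and the lipid kinase gene PIKFYVE 11.7 ± 1.64 CPM at high drip and 14.0 ± 3.68 CPM at low drip. Among targets in growth and autophagy, 5 of 9 were positive and 4 negative, with a median of 0.01. The transcription factor gene FOXO3 averaged 26.3 ± 5.67 CPM at high drip and 32.9 ± 7.42 CPM at low drip, and TSC2, which restrains mTOR, 49.3 ± 6.11 CPM at high drip and 46.0 ± 6.63 CPM at low drip. Among targets in transcription, 5 of 10 were positive and 5 negative, with a median of -0.0017. MEF2C averaged 148 ± 39.6 CPM at high drip and 177 ± 38.9 CPM at low drip, and the deacetylase gene HDAC5 70.7 ± 20.2 CPM at high drip and 65.1 ± 19.4 CPM at low drip.

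Of the AMPK related kinases 1 of 3 tested was positive for drip and 2 negative, with a median of -0.09. MARK2 averaged 15.8 ± 1.38 CPM at high drip and 14.2 ± 1.21 CPM at low drip, and SNRK 18.9 ± 2.76 CPM at high drip and 20.3 ± 2.85 CPM at low drip. Of the enzymes of adenine nucleotides, whose AMP and ATP the gamma subunits bind, 5 of 8 were positive and 3 negative, with a median of 0.04. AK1, the muscle adenylate kinase, averaged 1985 ± 243 CPM at high drip and 1840 ± 257 CPM at low drip, and ADK 10.21 ± 2.14 CPM at high drip and 9.16 ± 2.06 CPM at low drip. Of the glycogen enzymes 8 of 13 were positive and 5 negative, with a median of 0.01. PHKG1, the catalytic subunit of muscle phosphorylase kinase, averaged 225 ± 32.8 CPM at high drip and 180 ± 28.4 CPM at low drip, a log2 fold of 0.31 ± 0.12 (edgeR unadjusted p = 0.0197, adjusted p = 0.999). PHKB, another subunit of that kinase, averaged 1355 ± 213 CPM at high drip and 1156 ± 87.6 CPM at low drip.

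By fibre type, 6 of 6 tested fast fibre markers, of 13 listed, were positive for drip with a median of 0.07. Of the slow fibre markers, 11 were listed and 5 tested, and 4 were positive, with a median of 0.08. Over all tested features 5352 of 10627 were positive. The fast markers summed to 75558 to 82739 CPM in high drip and to 69806 to 80050 CPM in low drip libraries, and the slow markers to 9999 to 13575 CPM at high drip and to 11202 to 14222 CPM at low drip. MYL1, a fast fibre light chain, averaged 24833 ± 3011 CPM at high drip and 22823 ± 2108 CPM at low drip, and MYBPC2, of fast fibre thick filaments, 12329 ± 1110 CPM at high drip and 11544 ± 1800 CPM at low drip. MYL3, a slow fibre light chain, averaged 1800 ± 317 CPM at high drip and 1462 ± 388 CPM at low drip, and MYBPC1, of slow fibre thick filaments, 3468 ± 541 CPM at high drip and 3909 ± 685 CPM at low drip. In the males aged 172 days, where PRKAG3 was lowest, the fast markers summed to 71567 to 75558 CPM, and in the remaining 9 animals to 69806 to 82739 CPM.

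By age, all 9 growth and autophagy targets had a positive log2 change per 10 days, beside 5186 of 10627 over all tested features, with a median of 0.18 beside -0.01. Of the 9, 4 had an unadjusted p under 0.05 in edgeR, beside 9.75% of all features. This list was singled out for age after the values of all lists were seen. In the other lists the change was positive in 2 of 6 upstream kinases and scaffolds, 3 of 10 phosphatases and regulators, 1 of 4 lipid targets, 1 of 5 glucose targets, 7 of 10 transcription targets, 1 of 3 related kinases, 3 of 8 adenine nucleotide enzymes and 8 of 13 glycogen enzymes. TSC2 averaged 52.4 ± 4.68 CPM in the animals of 179 to 189 days and 42.9 ± 3.46 CPM in those of 167 to 173 days (SD, n = 6 each, edgeR adjusted p = 0.415). GYS1, the muscle glycogen synthase that AMPK phosphorylates, averaged 897 ± 166 CPM in the older and 719 ± 57.0 CPM in the younger animals, a log2 change of 0.37 ± 0.07 per 10 days (edgeR adjusted p = 0.311). GYS1, and TSC2 for age, were chosen after their values were seen, and neither passed.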

How the data were processed

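Muscle RNA of 12 pigs was sequenced, with 3 females and 3 males at each drip level. The deposited values are raw counts per feature, and reads were processed with TopHat2 2.0.3, Bowtie 0.12.7.0 and HTSeq on Sscrofa10.2, per the submitters' processing notes. The annotation release and strand setting are not given in the sources used here. Gene symbols came from a table of IDs, and 10349 of 20300 Ensembl genes had one. No genome sequence or coordinates were used here, because the gene table at hand is of another build and holds no transcript sequence.

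The test on counts was edgeR's two-sided quasi-likelihood F-test (version 4.0.16, R 4.3.3) after TMM scaling and filterByExpr on groups by sex and drip. P-values were adjusted by Benjamini and Hochberg's method over all tested features, with a threshold of 0.05. The fits had sex and drip as terms, and then their product, age or the presence of liver transcripts. DESeq2 1.42.0 was an alternative. Correlations used log2 CPM with a prior count of 2 and 100000 permutations, or exact permutations with fewer than 10 animals. Ratios added 0.5 to each count and were tested over 924 regroupings, with 0.00216 as the smallest p possible. The steps were tested on simulated data.

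The labels call animals separate samples but do not say whether any share a litter. Members, gene lists and alternatives were chosen with earlier results of these data known, and age was added after the levels were seen. Named genes were all subunits found, the 5 features most and the 5 least like PRKAG3, the 2 named genes most like each other subunit, and per list the 2 with the smallest p for drip. Of the lists of other cells, only summed levels that bear on a result are given. Rows that name no gene stayed out of the totals. Of all reads tallied, 24.2% to 29.3% fell in no feature, 12.8% to 15.5% were not uniquely aligned and 0.653% to 0.784% were ambiguous.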

Additional observations from a re-analysis of the deposited data

Results flagged for a closer look

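Levels of the 5 subunits were examined for animals that stand apart in 20 groups by drip or sex, of which chance alone would flag about 1. PRKAG2 in high drip 4, a male aged 172 days, stood at 80.0 CPM, far from the other high drip animals at 16.6 to 30.2 CPM. PRKAG2 in low drip 2, aged 173 days, stood at 35.4 CPM, far from the other females at 16.6 to 22.4 CPM. PRKAB1 in high drip 1 stood at 17.1 CPM, above the other high drip animals at 13.2 to 14.6 CPM.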

How the results depend on the processing

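No paired analysis was possible because the replicate numbers were given in accession order and pair no animals. Precision is limited by 3 animals per sex and drip level, and for PRKAB1 by 104 to 180 counts per library. For PRKAG2 and PRKAG3 the direction by sex was kept in every alternative run. With the tables as recorded, the log2 folds for drip of PRKAB1, PRKAG1 and PRKAG2 changed sign to 0.058, 0.085 and 0.065, and their interactions to -0.0069, -0.0077 and -0.25. In the 9 animals without a conflict, the drip folds of PRKAB1 and PRKAG1 were 0.15 and 0.039, the interactions of PRKAB1 and PRKAG2 -0.34 and -0.030, PRKAB2 by sex -0.11 and by age -0.081, and the log2 ratio of PRKAB2 to PRKAB1 by sex -0.0015. With liver transcripts as a term, the drip folds of PRKAB1 and PRKAG1 were 0.013 for each. PRKAB1 by age with no other term was 0.020. None of these sign changes concerned a value past the threshold, and the cause was not tested.

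Leaving out each animal in turn, PRKAB1 ranged from -0.069 to 0.075 for drip, from -0.047 to 0.28 for the interaction and from -0.14 to 0.070 for age. PRKAB2 ranged from -0.030 to 0.065 by sex and from -0.016 to 0.17 by age, PRKAG1 from -0.057 to 0.018 for drip, and PRKAG2 from -0.50 to 0.69 for the interaction, from -0.61 to -0.04 for drip and from 0.65 to 1.21 by sex. PRKAG3 ranged from 0.0027 to 0.25 for drip, from 0.09 to 0.47 by age and from 0.94 to 1.43 for the interaction, and in the region tables from -0.021 to 0.22 for drip and from 0.80 to 1.26 for the interaction, which passed in edgeR without high drip 4 (adjusted p from 0.0362 to 0.953 over the animals left out). The number of region features called for the interaction ranged from 0 to 4, with 4 without high drip 4 and 3 without low drip 4.

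Features called for age were 21 with DESeq2, for sex 2 with DESeq2 and 1 with no filter on low counts, for the interaction 7 with DESeq2 and 1 with liver transcripts as a term, and in the region tables DESeq2 called 2 for the interaction.

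Among pairs of subunits, 1 passed when deviations from the means by sex and drip were correlated, PRKAG3 with PRKAG2 (r = -0.885, permutation adjusted p = 0.0018). That permutation did not take into account that the deviations of a group sum to 0. The deviations were not correlated without the 3 males aged 172 days. On the levels the pair did not pass (permutation adjusted p = 0.156). On those deviations the coefficient of PRKAG3 was -0.0058 with PRKAG1, -0.033 with PRKAB1 and 0.19 with PRKAB2, and that of PRKAG1 was -0.072 with PRKAB1 and 0.16 with PRKAB2. With library totals and no TMM factor, PRKAB2 had 0.028 with PRKAG1 and 0.014 with PRKAG2. In libraries with liver transcripts PRKAB1 with PRKAB2 had 0.53, and in those without, PRKAG2 had 0.10 with PRKAG3, 0.18 with PRKAG1 and 0.32 with PRKAB1. Without the 3 males aged 172 days, an alternative chosen after seeing the data, PRKAG2 had 0.32 with PRKAG3, 0.060 with PRKAG1 and 0.15 with PRKAB1, PRKAG3 with PRKAB1 had -0.027, and PRKAG1 with PRKAB2 had 0.0040. Of these coefficients, those other than PRKAG3 with PRKAG2 on the deviations did not pass.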
